A study of Homo sapiens with 6 samples.

Results

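Nuclear hormone receptors are transcription factors, many of which bind a small lipid-soluble ligand and then switch target genes on or off. The 42 receptors described here are those named by symbol in a list of the superfamily, and all 42 were found among the 35793 genes of the deposited expression table. Expression was measured by RNA-seq in heart muscle cells that had been differentiated from WTC11, an established human induced pluripotent stem cell line, and were harvested on day 15. The wild-type group was unedited WTC11 and the knockout group was a WTC11 derivative in which CRISPR/Cas9 had disrupted both copies of STK25, a serine/threonine kinase. Each genotype had 3 biological replicates, untreated, and both were kept in RPMI 1640 medium with B27 supplement. B27 in its standard form carries steroid hormones, a vitamin A ester and thyroid hormone, all of which are receptor ligands or their precursors, and the labels do not say which form was used. Only 1 knockout line is named, so an effect of the edit cannot be told apart from other differences between the lines.

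Many receptors recognise variants of the hexamer AGGTCA in DNA. Steroid receptors pair with themselves and, before ligand binds, are held by chaperones of the HSP90 machinery. The retinoic acid, thyroid hormone, vitamin D, oxysterol and fatty acid receptors (RAR, THR, VDR, LXR and PPAR) instead sit on DNA with a retinoid X receptor (RXR) as partner, exchanging corepressors for coactivators when ligand binds. Orphan receptors, such as the COUP factors and the estrogen-related receptors, act with no established physiological ligand. In heart muscle, PPAR and estrogen-related receptors are known for control of fuel oxidation, THR for control of contractile isoforms, and the COUP factor NR2F2 for atrial identity.

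Total reads assigned to genes ran from 22443904 to 53224112 per library, a 2.37-fold range. STK25 itself had 6774 to 8874 normalized counts in the wild type and 3434 to 3906 in the knockout (log2 fold change -1.12, SE 0.19, limma adjusted p = 0.00903), without overlap. The 10 cardiomyocyte markers (TNNT2, TNNI1, TNNI3, MYH6, MYH7, MYL7, ACTN2, RYR2, TTN and NKX2-5) were all detected, with sums of 1258400 to 1570111 normalized counts for wild-type libraries and 1818899 to 3330221 for knockout libraries. Of these only NKX2-5, a cardiac transcription factor, passed the test, and it fell from 19414 to 23430 normalized counts in the wild type to 5869 to 6745 in the knockout (log2 fold change -1.71, SE 0.18, limma adjusted p = 0.00135). Wild-type replicate 2 and knockout replicate 1 stood apart from the other libraries on the second principal component, which carried 24.1% of the variance. Those libraries had 3.90% and 3.33% of their reads on mitochondrially encoded genes, against 1.25% to 2.18% in the other 4.

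Of the 42 receptors, 32 averaged 10 normalized counts or more over the 6 libraries and were tested (limma on log2(value + 1), Benjamini-Hochberg adjustment over 15536 genes). At an adjusted p under 0.05, 3 rose in the knockout (THRB, PPARG and NR2F2) and 1 fell (RXRG). That is 12.5% of the receptors tested. Among all genes tested 12.8% were called, 5.97% higher and 6.79% lower, so the share among receptors was near the background. Values of the 2 genotypes did not overlap for 12 receptors, 7 higher and 5 lower in the knockout (37.5%). The background for that was 33.4% of all genes, 16.2% higher and 17.2% lower. The median log2 fold change was 0.29 over the tested receptors and 0.0052 over all tested genes. Scaling the libraries to equal totals moved these medians to 0.00496 and -0.27. THRB and PPARG passed the filter through their knockout values alone, as did NR2F1 and NR4A3, and ESR2 passed through its wild-type values alone. Such genes had to differ if they were to be tested at all.

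**Figure D1:**
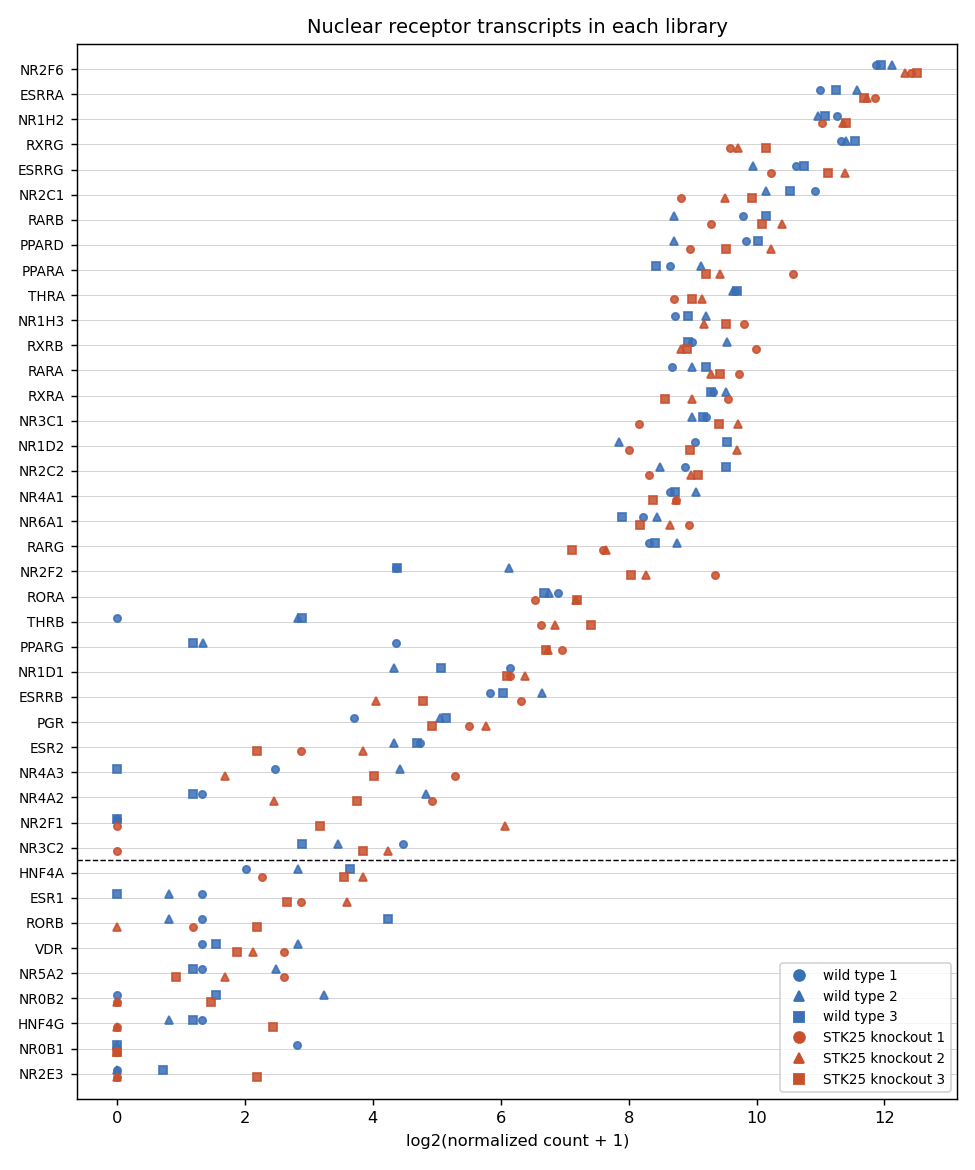
Normalized counts of the 41 receptors with at least 1 read, on a log2(value + 1) axis, with 1 point per library (circles, triangles and squares are replicates 1, 2 and 3; blue is wild type and orange is knockout). Receptors above the dashed line had a mean of at least 10; THRB, PPARG and NR2F2 lie to the right in all 3 knockout libraries and RXRG to the left.

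The upstream DNA of the receptors that passed the test is shown next, because receptor genes are themselves read by receptors and AGGTCA is the core that many of them bind. Sequences are from RefSeq (GRCh38.p14), 5′ to 3′ on the strand of the gene, with AGGTCA or its reverse complement TGACCT in capitals.

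PPARG, 250 to 1 bases before the start, chr3:12287118-12287367, plus strand: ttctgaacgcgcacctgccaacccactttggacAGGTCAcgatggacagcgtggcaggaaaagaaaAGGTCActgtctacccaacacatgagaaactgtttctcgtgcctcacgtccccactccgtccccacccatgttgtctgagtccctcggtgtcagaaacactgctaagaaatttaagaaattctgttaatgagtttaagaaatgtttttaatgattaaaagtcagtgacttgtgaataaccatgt

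THRB, 250 to 49 bases before the start, chr3:24495757-24495958, minus strand: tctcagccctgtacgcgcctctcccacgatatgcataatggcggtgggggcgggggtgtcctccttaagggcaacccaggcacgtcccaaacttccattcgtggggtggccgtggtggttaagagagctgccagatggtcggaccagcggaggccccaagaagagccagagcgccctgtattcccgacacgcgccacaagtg

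RXRG, 243 to 214 bases before the start, chr1:165445340-165445369, minus strand: ccgcctctctccTGACCTacaccgggcggt

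The PPARG window held AGGTCA at 2 places, which began 217 and 184 bases before the start and had the same orientation. The RXRG window held 1 copy, in reverse orientation, and the THRB window held none. AGGTCA on either strand was found in the 250 bases upstream of 7 of the 37 receptors with a sequence (18.9%) and of 12.1% of 35116 promoters in all. A match is a run of letters and not a measured site. The THRB window stops short of 48 bases of untranslated exon. In the RXRG window 229 bases lie in untranslated exon of a longer GENCODE 29 transcript, so only 30 bases around the match are shown, of which 16 are in that exon, 4 of them in capitals. The RXRG match therefore lies across the start of that transcript. The window listed for NR2F2 overlapped coding sequence of a longer transcript by 233 bases and is not shown. The PPARG window had 44.8% G and C, below the 58.0% median of all windows, while THRB had 65.2% and RXRG 62.0%. PPARG and THRB are known to be transcribed from several start sites, and gene totals do not show which start was used.

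RXR proteins are the shared partners of the ligand-dependent heterodimers, and the largest change in mean normalized counts among the 42 receptors, that of RXRG, was in this group. RXRG, the isoform typical of striated muscle (chromosome 1, 165400917 to 165445355 in GENCODE 29 on GRCh38), had 2559, 2713 and 2986 normalized counts in the wild-type libraries and 769, 836 and 1138 in the knockout libraries. All 3 knockout values lay below all wild-type values. The knockout mean of 914 ± 197 was 33.2% of the wild-type mean of 2753 ± 216 (SD, n = 3 each). On the log2 scale RXRG fell by 1.61 (SE 0.21, limma adjusted p = 0.00332). With 3 values against 3, a two-sided exact permutation test cannot go below p = 0.1, which it reaches for every receptor without overlap. RXRA ran from 626 to 735 normalized counts in wild-type and from 380 to 747 in knockout libraries, with overlap (log2 fold change -0.34, SE 0.29, limma adjusted p = 0.503). RXRB overlapped too, from 486 to 739 and from 453 to 1018 (log2 fold change 0.09, SE 0.36, limma adjusted p = 0.909).

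Levels of different genes were compared only as normalized counts per kilobase of median coding transcript. On that scale RXRG held 65.9% to 73.3% of the summed RXR level in the wild type and 32.1% to 58.7% in the knockout. The summed RXR level was 1713 to 1919 per kilobase in the wild type and 821 to 1117 in the knockout, 0.514 times the wild-type mean, or 0.419 times with equal totals. RXRG ranked 2 of 42 receptors per kilobase in the wild type and 5 in the knockout.

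**Figure D2:**
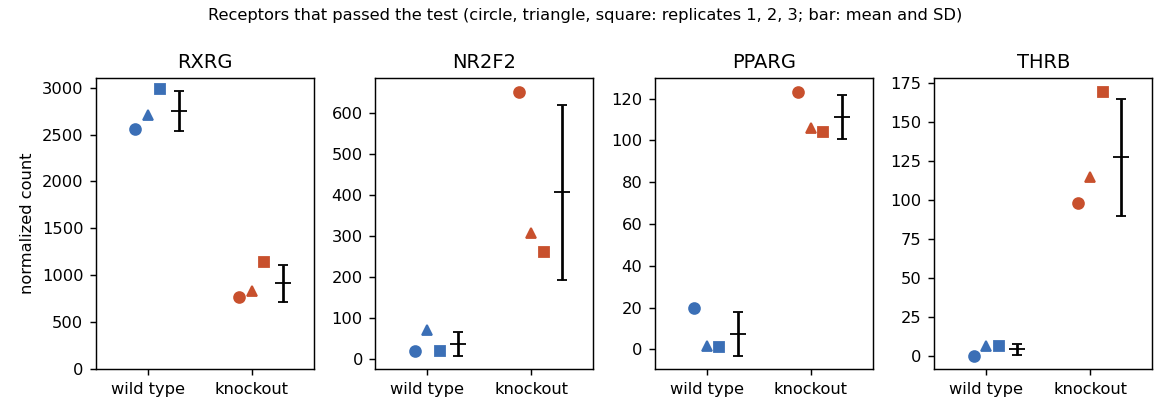
Normalized counts (linear axis that includes 0, with a separate scale for each gene) of the 4 receptors that passed the test, with 1 point per library and the mean and SD of each genotype as a bar. RXRG was lower in the knockout (914 against 2753), and NR2F2, PPARG and THRB were higher, with no overlap between genotypes for any of them.

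Thyroid hormone receptors bind triiodothyronine, which adjusts myosin isoforms and calcium uptake in heart muscle. THRB (chromosome 3, 24117153 to 24495756) had 0, 6.09 and 6.38 normalized counts in the wild type, which were 0, 8 and 10 reads, and 97.9, 115 and 170 in the knockout. Every knockout library held at least 77 reads of it. The means were 4.16 ± 3.60 and 127 ± 37.6 (SD, n = 3 each), and THRB rose by 5.06 on the log2 scale (SE 0.85, limma adjusted p = 0.00907). Without knockout replicate 3 it was 4.84 with an adjusted p of 0.0502. THRA, the main cardiac form, had 795 to 828 normalized counts in the wild type and 416, 566 and 509 in the knockout, again without overlap. Its log2 fold change of -0.72 (SE 0.21) had a limma adjusted p of 0.0685, over the threshold, and DESeq2 gave 0.00958. THRA and NR1D1 share 263 exon bases on opposite strands, and no strand setting is stated, so reads there cannot be assigned to one of them. Per kilobase, THRB made up at most 0.338% of the THRA and THRB level in the wild type and 8.20% to 12.8% in the knockout. The sum of both was 0.679 times the wild-type mean in the knockout.

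Of 10 genes known as thyroid hormone targets, 7 were tested and 1 passed. Of the 7, 4 had positive and 3 had negative log2 fold changes. With DESeq2, 3 rose and 2 fell. The background for this and later lists was 12.8% of all tested genes called, 5.97% higher and 6.79% lower. The median log2 fold change of all tested genes was 0.0052. PLN, the inhibitor of the calcium pump that the hormone represses, had a log2 fold change of -0.76 (SE 0.20, limma adjusted p = 0.0459). That call held in 9 of 16 alternatives, with an adjusted p up to 0.272. MYH6, which the hormone activates, had 91792 to 186498 normalized counts in the wild type and 55128 to 69496 in the knockout (log2 fold change -1.14, limma adjusted p = 0.0531). MYH7, which it represses, had 49595 to 136875 and 177105 to 291460 (log2 fold change 1.42, limma adjusted p = 0.0639). Neither passed, although their genotypes did not overlap, and reads can be shared between these near-identical paralogs. ATP2A2, the calcium pump itself, was higher without overlap, at 18798 to 30207 and 35688 to 51889. It did not pass either (log2 fold change 0.81, SE 0.26, limma adjusted p = 0.0851). The deiodinase DIO2 had at most 2.55 normalized counts in any library and DIO3 had none.

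PPARs bind fatty acids. PPARG, known as the regulator of fat cell formation (chromosome 3, 12287368 to 12434356), had 19.6, 1.523 and 1.276 normalized counts in the wild type (13, 2 and 2 reads) and 123.3, 105.9 and 104.0 in the knockout (97, 95 and 117 reads). Wild-type replicate 1 was the highest of its genotype and still below every knockout library. The means were 7.48 ± 10.5 and 111 ± 10.6 (SD, n = 3 each), and PPARG rose by 4.51 on the log2 scale (SE 0.88, limma adjusted p = 0.0158). Leaving out wild-type replicate 3 gave 3.95 (adjusted p = 0.0546) and leaving out knockout replicate 3 gave 4.55 (adjusted p = 0.0635), so the call was lost in both cases. PPARA, which drives fatty acid oxidation, had 400, 558 and 343 normalized counts in the wild type and 1521, 687 and 592 in the knockout, without overlap. It did not pass (log2 fold change 1.00, SE 0.39, limma adjusted p = 0.142). PPARD, the form with the highest level per kilobase in 5 of the 6 libraries, ranged from 420 to 1039 and from 494 to 1193 (log2 fold change 0.04, SE 0.44, limma adjusted p = 0.969). PPARG made up 0.205% to 3.36% of the summed PPAR level per kilobase in the wild type and 12.1% to 18.3% in the knockout.

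Among 17 PPAR targets, 16 were tested, 2 rose and none fell, and their median log2 fold change was 0.06. FABP3, the fatty acid carrier of heart muscle, had 11240 to 17286 normalized counts in the wild type and 38921 to 81452 in the knockout (log2 fold change 1.98, SE 0.32, limma adjusted p = 0.00751). CD36, a fatty acid transporter, had 69.5 to 123.1 and 200 to 251 (log2 fold change 1.40, SE 0.34, limma adjusted p = 0.0354). With equal totals the list median was -0.22 and 1 gene rose and 1 fell, and with quantile normalization 2 rose and 1 fell. The call of CD36 held in 8 of 16 alternatives and that of FABP3 in all 16.

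Retinoic acid receptors read the vitamin A metabolite that patterns the atrial end of the heart. RARG had 319, 430 and 339 normalized counts in the wild type and 192, 200 and 137 in the knockout. Every knockout library was below every wild-type library, and the log2 fold change of -1.05 (SE 0.28) had a limma adjusted p of 0.0501, just over the threshold. DESeq2 gave 0.00489 and edgeR 0.0517. RARA was higher without overlap, at 411 to 591 and 623 to 843 (log2 fold change 0.52, SE 0.24, limma adjusted p = 0.215). RARB, itself a classic retinoic acid target, overlapped at 419 to 1137 and 624 to 1348 (log2 fold change 0.37, limma adjusted p = 0.638). RARG held 18.5% to 34.0% of the summed RAR level per kilobase in the wild type and 8.10% to 12.6% in the knockout.

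Of 9 retinoid targets, 5 were tested, of which 1 rose and 2 fell. DHRS3, which reduces retinal, rose (log2 fold change 1.19, SE 0.21, limma adjusted p = 0.0112). STRA6, a receptor for retinol binding protein, had 1043 to 1233 normalized counts in the wild type and 157 to 273 in the knockout (log2 fold change -2.58, SE 0.28, limma adjusted p = 0.00156). TGM2, a transglutaminase, fell as well (log2 fold change -1.23, SE 0.32, limma adjusted p = 0.0446). On the supply side, the retinoic acid synthase ALDH1A2 had 0, 7.62 and 11.5 normalized counts in the wild type and 90.2, 224 and 254 in the knockout (log2 fold change 5.19, SE 0.99, limma adjusted p = 0.0141). RDH10, which makes retinal, fell (log2 fold change -1.22, SE 0.27, limma adjusted p = 0.0253). ALDH1A2 passed the filter through its knockout values alone. It is also an epicardial marker, and its list is given below.

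LXRs sense oxysterols. NR1H2 ranked 3 of 42 per kilobase in both genotypes and overlapped, at 2002 to 2439 and 2077 to 2697 normalized counts (log2 fold change 0.16, SE 0.19, limma adjusted p = 0.660). NR1H3 overlapped by a narrow margin, at 424 to 590 and 578 to 890 (log2 fold change 0.54, SE 0.25, limma adjusted p = 0.217). Of 9 LXR targets 2 rose and 2 fell. SREBF1, the regulator of fatty acid synthesis, rose by 1.03 and the lipid carrier APOE by 1.38 on the log2 scale (limma adjusted p = 0.0137 and 0.0198). MYLIP, which marks the LDL receptor for breakdown, fell by 1.86, and the phospholipid transfer protein PLTP fell by 1.72 (limma adjusted p = 0.00970 and 0.00276). The vitamin D receptor VDR had at most 6.09 normalized counts in any library. The bile acid receptor NR1H4 had no read in any library.

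The steroid receptors were low, apart from NR3C1. NR3C1, the glucocorticoid receptor, had 508 to 589 normalized counts in the wild type and 286, 836 and 680 in the knockout, with knockout replicate 1 below all other libraries (log2 fold change -0.02, SE 0.40, limma adjusted p = 0.979). Without that library the value was 0.44 with an adjusted p of 0.243. NR3C2, the mineralocorticoid receptor, had 6.38 to 21.1 and 0 to 17.8. PGR, the progesterone receptor, had 12.1 to 34.4 and 29.3 to 53.5 with overlap (log2 fold change 0.77, SE 0.57). ESR2, an estrogen receptor, was lower without overlap, at 19.0 to 25.7 and 3.55 to 13.4 normalized counts. Its knockout values rested on 5, 12 and 4 reads (log2 fold change -1.61, SE 0.67, limma adjusted p = 0.165). ESR1 moved the other way but was too low to test, with 1, 1 and 0 reads in the wild type and 5, 10 and 6 in the knockout. With no filter on low values it had a log2 fold change of 2.33 and an adjusted p of 0.0773.

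Among 9 glucocorticoid targets 1 fell and none rose, while 6 had positive log2 fold changes, with a median of 0.15 over the list. With DESeq2, 2 rose and 2 fell. ZBTB16, a zinc finger repressor, went from 105 to 189 normalized counts in the wild type to 4.44 to 5.08 in the knockout (log2 fold change -4.60, SE 0.48, limma adjusted p = 0.00126). It was tested only because of its wild-type values. FKBP5, a target that also restrains the receptor, had 790 to 1847 and 167 to 683 normalized counts without overlap but did not pass (log2 fold change -1.75, SE 0.58, limma adjusted p = 0.0908). HSD11B1, which regenerates cortisol from cortisone, had no read in any wild-type library and 133, 42.4 and 49.8 normalized counts in the knockout (limma adjusted p = 0.00268). It was tested only because of its knockout values. Of the 10 chaperones of steroid receptors 0 passed with limma and with edgeR, and 2 with DESeq2, while 3 had an unadjusted limma p under 0.05. Their summed level was 173822 to 182865 normalized counts in the wild type and 253918 to 276658 in the knockout. The median log2 fold change of the chaperones was 0.38, but 0.10 with equal totals and 0.11 with quantile normalization.

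The COUP family included the highest receptor and one that rose. NR2F6 ranked 1 of 42 per kilobase in both genotypes, with 3757, 4434 and 3968 normalized counts in the wild type and 5466, 5119 and 5860 in the knockout. Its groups did not overlap, but the log2 fold change of 0.44 (SE 0.17) had a limma adjusted p of 0.147. NR2F2 (chromosome 15, 96325938 to 96340263) had 19.6, 69.3 and 19.8 normalized counts in the wild type and 652, 308 and 260 in the knockout. The lowest knockout library exceeded the highest wild-type library, and the means were 36.2 ± 28.6 and 407 ± 214 (SD, n = 3 each). NR2F2 rose by 3.59 on the log2 scale (SE 0.59, limma adjusted p = 0.00818). Its paralog NR2F1 had 0 reads in all wild-type libraries and 0, 59 and 9 in the knockout, so the groups overlapped at 0 (limma adjusted p = 0.258, DESeq2 0.0158, edgeR 0.113). The knockout value of NR2F1 rested mostly on replicate 2, and without replicate 1 it passed (adjusted p = 0.0441).

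Markers of several cell types moved with NR2F2, and their part in its rise was not tested. In bulk RNA, more cells of a type and more RNA per cell cannot be told apart. Of the 9 atrial markers, a list that holds NR2F1 and NR2F2, only NR2F2 rose, while NPPA, KCNA5 and GJA5 fell (log2 fold changes -2.38, -1.93 and -9.25). Summed atrial markers were 262659 to 431866 normalized counts in the wild type and 188680 to 397167 in the knockout. Of the 6 ventricular markers 5 fell, namely MYL2, IRX4, HEY2, GJA1 and FHL2, and their list had a median log2 fold change of -3.88. The summed ventricular markers overlapped, at 144906 to 187259 and 136258 to 237308, since MYL3, which did not pass, made up most of the sum. Of the 5 smooth muscle markers ACTA2, CNN1, MYH11 and TAGLN rose, with sums of 82158 to 94154 in the wild type and 490518 to 539769 in the knockout. The other marker, MYOCD, had a negative log2 fold change that did not pass with limma but passed with DESeq2. Of the 5 epicardial markers TCF21 and ALDH1A2 rose, and the list summed to 103 to 219 and 912 to 1091. No epicardial or smooth muscle marker was at 0 in every library. Of 7 fibroblast markers COL3A1 and DCN rose and COL1A2 fell, with sums of 12893 to 26523 and 7662 to 16208. Of 7 neural markers SOX2, PAX6 and TUBB3 rose, with sums of 4560 to 7867 and 7080 to 16921. SOX2, PAX6 and ALDH1A2 were tested only through their knockout values. The same markers moved with the rises of PPARG and THRB and with the fall of RXRG, and their part in those was not tested either.

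NR2C1 and NR2C2 are orphan receptors also called TR2 and TR4, which bind direct repeats of AGGTCA. NR2C1 had 1923, 1133 and 1478 normalized counts in the wild type and 453, 730 and 970.5 in the knockout, with no overlap. Its log2 fold change of -1.11 (SE 0.33) had a limma adjusted p of 0.0685, with DESeq2 0.0181. NR2C2 overlapped, at 357 to 732 and 318 to 543 (log2 fold change -0.17, limma adjusted p = 0.810). The summed level of both per kilobase in the knockout was 0.561 times the wild-type mean.

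Estrogen-related receptors act with the coactivators PPARGC1A and PPARGC1B on mitochondrial genes. ESRRA had 2041, 3041 and 2429 normalized counts in the wild type and 3717, 3405 and 3286 in the knockout, with all knockout libraries higher (log2 fold change 0.49, SE 0.20, limma adjusted p = 0.170). ESRRG overlapped, at 985 to 1709 and 1191 to 2678 (log2 fold change 0.47, SE 0.35, limma adjusted p = 0.442). ESRRB was low, at 55.9 to 99.0 and 15.6 to 78.8. Per kilobase ESRRA held 74.3% to 86.8% of the summed level over the 6 libraries, with no order by genotype. All 9 tested targets of these receptors had positive log2 fold changes, with a median of 0.84 against 0.0052 over all tested genes. Of the 9 targets 3 passed (33.3%, against 12.8% of all tested genes). This list too was chosen with earlier results of these data known, so its share and median may reflect that choice. With equal totals 8 of 9 were positive and with quantile normalization 6 of 9, with 2 calls under each. CYCS, which encodes cytochrome c, IDH3A of the citric acid cycle and the mitochondrial creatine kinase CKMT2 rose (log2 fold changes 1.22, 1.33 and 1.58, limma adjusted p = 0.0219, 0.0385 and 0.00176). PPARGC1A had 1059 to 1805 normalized counts and 1289 to 2318 (limma adjusted p = 0.417).

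Coregulators showed few calls. Of 14 coactivators NCOA1 rose (log2 fold change 1.11, SE 0.29, limma adjusted p = 0.0423), whereas the other 13 did not pass. The call of NCOA1 held in 9 of 16 alternatives, with an adjusted p up to 0.19. Of 9 corepressors 0 passed with limma and with edgeR, and 2 passed with DESeq2, while 3 had an unadjusted limma p under 0.05. NCOR1, a corepressor that unliganded receptors recruit, had a log2 fold change of 0.04 (SE 0.17, limma adjusted p = 0.917). NRIP1 was higher without overlap, at 534 to 856 and 1051 to 1421 normalized counts, but did not pass (limma adjusted p = 0.0825). Over all 116 tested genes of the pathway lists, receptors left out, 12 rose and 12 fell, which is 20.7% against 12.8% of all genes. The lists were chosen with earlier results of these data known, so this difference may come from the choice of genes. Leaving out 1 library at a time, 8 of these 24 calls always held, those of AFP, APOB, CKMT2, FABP3, HSD11B1, PLTP, STRA6 and ZBTB16. Among them AFP, APOB, HSD11B1 and ZBTB16 passed the filter through a single genotype and had to differ to be tested. The other 16 of the 24 calls were lost at least once. CD36, IDH3A, NCOA1, PLN and TGM2 lost theirs in 5 of the 6 cases. JUN and SREBF1 did so without wild-type replicates 1 and 3 and knockout replicates 2 and 3, each left out alone. APOE, ATF3, CYCS, EGR1 and RDH10 lost theirs when replicate 1 or 3 of the wild type, or replicate 3 of the knockout, was left out. FGB lost its call without wild-type replicate 1 or 3, MYLIP without wild-type replicate 1, DHRS3 without wild-type replicate 3 and ALDH1A2 without knockout replicate 3.

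**Figure D3:**
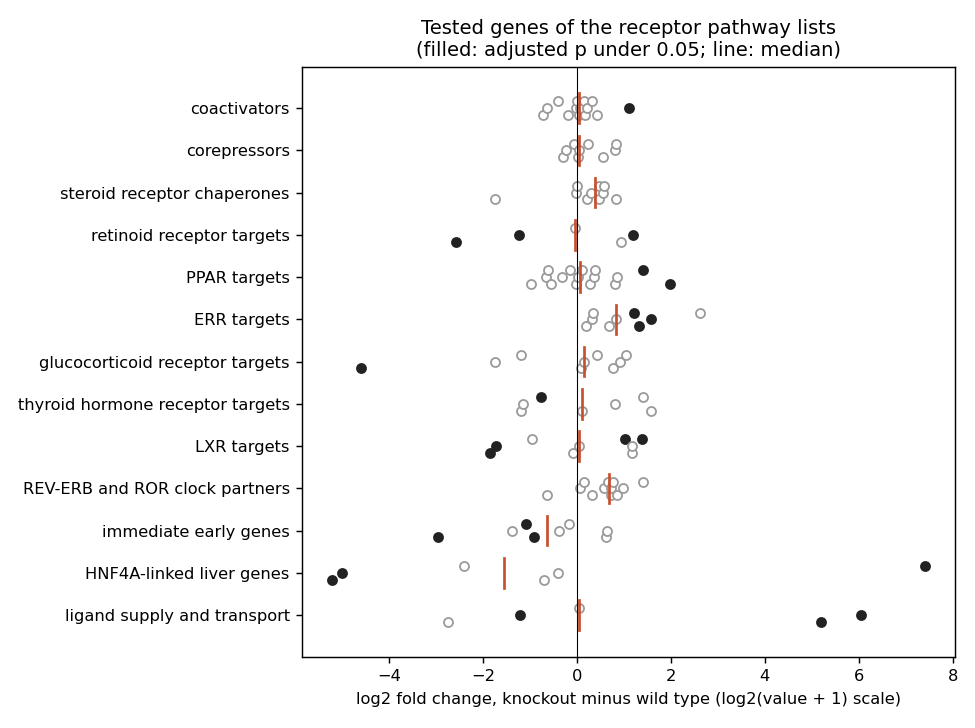
Log2 fold change (knockout minus wild type) of each tested gene in the 13 receptor pathway lists, with genes past an adjusted p of 0.05 filled and list medians as orange lines. The targets of estrogen-related receptors lie to the right of 0, with a median of 0.84, while the liver gene list has its extremes on both sides.

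Among the remaining orphan receptors, none of those tested passed. NR4A1, an immediate early gene, had 399 to 533 normalized counts in the wild type and 332 to 426 in the knockout (log2 fold change -0.19, limma adjusted p = 0.676). NR4A2 had 1.510, 27.4 and 1.276 in the wild type and 29.2, 4.46 and 12.4 in the knockout. NR4A3 had 4.53, 20.6 and 0 and then 38.1, 2.23 and 15.1. Both were highest in wild-type replicate 2 and knockout replicate 1. Of 10 other immediate early genes 8 were tested, and JUN, EGR1 and ATF3 fell (log2 fold changes -0.90, -2.97 and -1.08, limma adjusted p = 0.0237, 0.0163 and 0.0132). None of the 3 passed once replicate 1 or 3 of the wild type, or replicate 3 of the knockout, was left out. NR1D1, a heme-binding clock repressor, had 19.0 to 69.5 and 67.5 to 82.5 (limma adjusted p = 0.258). NR1D2, its paralog, had 229 to 746 and 257 to 831, and RORA, the activator at the same DNA elements, had 101 to 118 and 91.5 to 146. Of their 15 clock partners 12 were tested and 0 passed with limma and with edgeR, and 1 with DESeq2. Of those 12, 2 were at an unadjusted limma p under 0.05 and 11 had positive log2 fold changes. With equal totals 9 of the 12 were positive. NR6A1, which represses pluripotency genes, had 237 to 348 and 290 to 489 (limma adjusted p = 0.441).

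The 10 untested receptors never exceeded 28 reads in a library. They were ESR1, VDR, NR1H4, RORB, HNF4A, HNF4G, NR2E3, NR5A2, NR0B1 and NR0B2. HNF4A, a liver and gut regulator, had 3.02 to 11.5 normalized counts in the wild type and 3.81 to 13.4 in the knockout, with overlap. Of 8 liver genes linked to it 6 were tested, of which 1 rose and 2 fell. Of those 6, 5 had negative log2 fold changes, with a median of -1.55 over the list. APOB, the protein of low-density lipoprotein, had 4.53, 0 and 0.638 normalized counts in the wild type and 411, 440 and 247 in the knockout (log2 fold change 7.42, SE 0.72, limma adjusted p = 0.000938). It was tested only through the knockout values. AFP fell by 5.21 and FGB, at 0 reads in every knockout library, had 11.4 to 60.4 in the wild type (limma adjusted p = 0.00661 and 0.0121). AFP and FGB were tested only through their wild-type values.

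**Figure D4:**
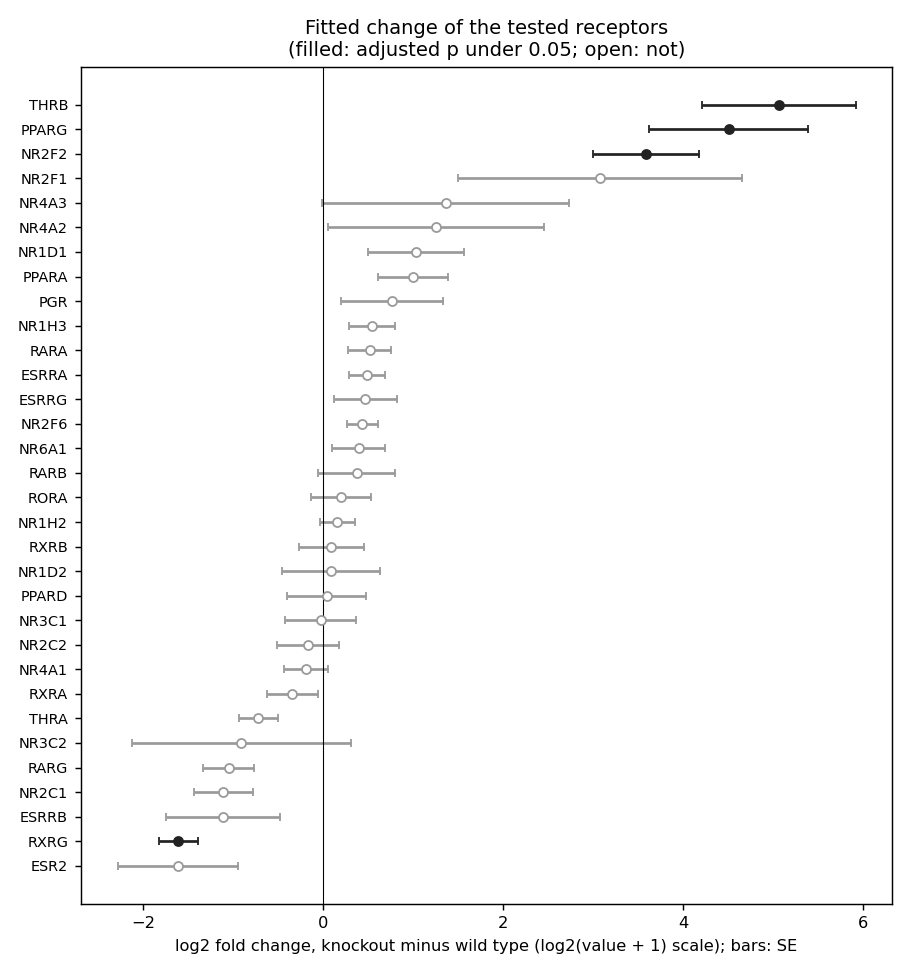
Log2 fold change (knockout minus wild type, log2(value + 1) scale) of the 32 tested receptors, ordered by size, with the SE of limma's fit as a bar. Filled points, THRB (5.06), PPARG (4.51), NR2F2 (3.59) and RXRG (-1.61), had an adjusted p under 0.05.

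Many receptors deviated in the same direction in wild-type replicate 2 and knockout replicate 1. For 19 of the 32 tested receptors (59.4%), wild-type replicate 2 and knockout replicate 1 were both the lowest of their genotype (9 receptors) or both the highest (10). Over all tested genes the same held for 59.9%, with 30.4% lowest and 29.5% highest, so the share among receptors was near the background. RARB, PPARD and NR1D2 were low in both libraries, and NR4A2, NR4A3, PPARA and RXRB were high in both. The deviations of these libraries from their genotype means had a Pearson r of 0.539 over the 32 receptors, as a description across genes that share the libraries, and 0.448 over 15536 genes. Without both libraries, 12 receptors passed in 2 against 2 libraries, 8 higher and 4 lower, while 28.9% of all genes passed. ESRRA, ESRRG, NR2F1, NR2F6 and PPARA joined the higher group, and NR2C1, RARG and THRA the lower group. RXRG, NR2F2, PPARG and THRB kept their calls there, with log2 fold changes of -1.50, 3.78, 3.95 and 5.69. Both libraries were picked because they stood apart in these same data, and leaving them out lowers the spread within genotypes. Calls kept or gained there are therefore no independent support.

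**Figure D5:**
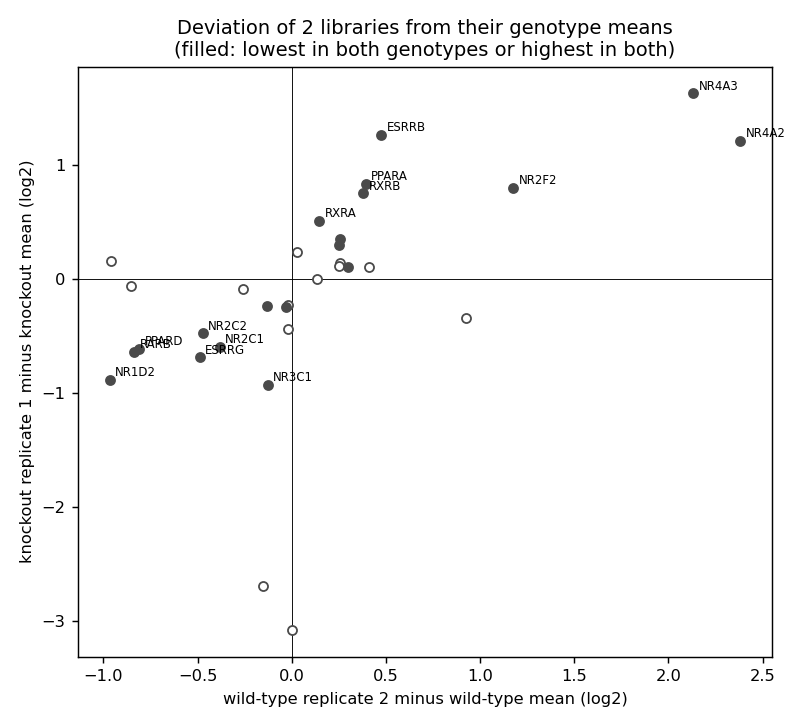
Deviation of wild-type replicate 2 (horizontal axis) and knockout replicate 1 (vertical axis) from the mean of their own genotype, in log2 units, with 1 point for each of the 32 tested receptors. Filled points are the 19 receptors for which both libraries were lowest or both highest; NR4A2 and NR4A3 lie at the upper right and NR1D2 at the lower left.

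The order of receptor levels per kilobase was led by NR2F6 in both genotypes. Without a stated strand setting, levels and ranks may include reads of overlapping genes. NR2F6 shares 221 exon bases with AC010646.1 on its own strand, and ESR2 shares 523 with AL161756.1 on its own. On the opposite strand ESRRA shares 284 with TRMT112, NR1H3 189 with ACP2 and NR2C2 756 with MRPS25. Also opposite, PGR shares 812 with PGR-AS1, NR4A1 754 with AC025259.3 and RARA 556 with RARA-AS1. Other receptors have such overlaps too. In the wild type NR2F6 stood at 1686 ± 144 normalized counts per kilobase, followed by RXRG at 1282 ± 101, NR1H2 at 1200 ± 122 and ESRRA at 1129 ± 227 (SD, n = 3 each). RXRG, NR1H2 and ESRRA differed by less than their spread. In the knockout the order was NR2F6 at 2280 ± 154, ESRRA at 1564 ± 100, NR1H2 at 1344 ± 183 and NR1H3 at 488 ± 104 (SD, n = 3 each). ESRRA and NR1H2 did not overlap there, but knockout replicate 3 had 1482 of the one and 1474 of the other. NR2C1 held rank 5 in the wild type at 788 ± 206 per kilobase, and RXRG held rank 5 in the knockout at 426 ± 91.7 (SD, n = 3 each), below NR1H3 by less than their spread. NR2F2, PPARG and THRB stayed low on this scale even after their rise, with knockout means of 142, 59.0 and 23.2 per kilobase.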

How the data were processed

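RNA was measured in 6 libraries, 3 wild-type and 3 knockout. The submitters' processing notes name bcl2fastq 2.19, kallisto 0.44.0, DESeq2 1.28.1 and build GRCh38, without role or order. Per the labels' protocols, total RNA was treated with DNase and turned into cDNA (Clontech Ultra Low v4), from which NexteraXT libraries were made. The deposited table gives 1 signal per gene symbol and library, called normalized counts. In every library 100% of these values were whole multiples of 1 step (relative tolerance 1e-06), so whole reads could be recovered, which edgeR and DESeq2 were run on. Of the columns, 0 were unused. If kallisto made the totals, reads shared between similar genes were split by estimate. No batch is given in the labels, so no within-batch value could be computed. P-values measure the spread between these 6 libraries.

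Tests used R 4.3.3 and limma 3.58.1 (lmFit, eBayes with a trend) on log2(value + 1), for genes averaging 10 or more, with Benjamini-Hochberg adjustment over all 15536 genes tested and a threshold of 0.05. For low genes a fold change on this scale can lie above or below that of edgeR and DESeq2. With limma, edgeR and DESeq2 in turn, THRB had log2 fold changes of 5.06, 4.75 and 4.78. PPARG had 4.51, 4.06 and 4.03, and NR2F1 had 3.08, 7.71 and 7.21. Alternatives were edgeR 4.0.16, DESeq2 1.42.0, pseudocounts of 0.1 and 10, either no filter or a minimum mean of 50, equal totals, quantile normalization, the replicate number as a block, and leaving out libraries. In simulated data with 15536 genes, limma recovered 49 of 100 genes changed by 1 log2 unit and 100 of 100 changed by 2, with 8 false calls. The simulation gave every gene the same dispersion and drew each library independently. It lacked the deviation that wild-type replicate 2 and knockout replicate 1 share, so its recovery need not hold for these receptors. Levels per kilobase used the median coding transcript length in GENCODE 29's basic set, which need not be the isoform expressed. Positions come from that annotation. Plots used matplotlib 3.10.9.

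The receptors, pathway lists and markers were chosen with earlier results of these data known. The rule was to name every receptor, STK25, pathway genes and markers with an adjusted p under 0.05, and other pathway genes only as partners of a receptor described. The cardiomyocyte markers are named besides, as a check of the cell type, and so are MYL3 and MYOCD, which did not pass. Receptors and lists are described by counts and medians beside those of all genes, with no set test. The values of 1 corepressor gene are not reported here.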

Additional observations from a re-analysis of the deposited data

How the results depend on the processing

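The calls of RXRG and NR2F2 held under all 16 alternatives, that of THRB under 15 and that of PPARG under 14. Of these alternatives, 1 left out wild-type replicate 2 and knockout replicate 1, which were picked from these same data. Among receptors 3 rose and 1 fell. The number that fell was 2 with a mean of at least 50 or equal totals (RARG added) and with quantile normalization (NR2C1 added), and 4 with DESeq2, where 4 rose. Without wild-type replicate 2 and knockout replicate 1 together, 8 rose and 4 fell. Leaving out 1 library, 1 to 4 rose and 1 fell, with the lowest number without knockout replicate 3. Over all genes 927 rose and 1055 fell. The numbers were 866 and 998 with edgeR, 549 and 1456 with equal totals (27.4% of calls higher against 46.8%), 348 and 450 with the replicate block, 1554 and 1656 with DESeq2, and 2311 and 2172 without both libraries. Leaving out 1 library they ran from 369 to 1003 and from 397 to 1178, and they fell by more than 1.5 times without wild-type replicate 1, wild-type replicate 3, knockout replicate 3 and, for genes that rose, knockout replicate 2. Of pathway list genes 12 rose and 12 fell. These were 7 and 14 with equal totals, 5 and 6 with the replicate block, 23 and 16 with DESeq2, 34 and 20 without both libraries, and 5 to 17 and 4 to 13 leaving out 1 library. STK25 had -1.12 (adjusted p = 0.0684) with the replicate block and -1.24 to -1.05 leaving out 1 library, with an adjusted p up to 0.0609, reached without wild-type replicate 1.

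The labels do not say that replicate numbers pair the samples. Deviations of same-numbered libraries had correlations of -0.235, -0.4 and 0.169, which cannot decide a pairing with 3 libraries per genotype. The replicate block changed no receptor's call.

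Signs turned only for receptors that did not pass. With equal totals RXRB was -0.19, PPARD -0.24, NR1D2 -0.20, NR1H2 -0.12 and RORA -0.081. NR3C1 was 0.070 with quantile normalization, 0.10 with edgeR and 0.11 with DESeq2. Without both libraries NR3C1 was 0.38, NR3C2 0.36, RXRB -0.095 and PPARD -0.059. Leaving out 1 library, values ran from -0.33 to 0.44 for NR3C1, -1.68 to 0.44 for NR3C2, -0.047 to 0.69 for RARB, -0.29 to 0.30 for RXRB, -0.37 to 0.35 for PPARD, -0.40 to 0.53 for NR1D2 and -0.40 to 0.11 for NR2C2. The cause was not tested. Depth limits the receptors under about 28 reads, where single reads move the value.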
